A study of Mus musculus with 13 samples.

Results

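Complement is the cascade of plasma and cell surface proteins that tags microbes, dying cells and immune complexes, and this account follows the genes for its components, receptors and regulators in mouse epididymal fat. The set was a fixed list of 37 genes, chosen by their place in the cascade. Of the 37 genes, 31 had a probe set of their own and were measured, out of 18818 genes measured in all. C4b, Masp2 and Cd59a had only probe sets that name several genes, and C3, C7 and Cfd were not analysed here.

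RNA from epididymal white fat was hybridised to 13 Affymetrix gene arrays, 1 per sample. The mice were males aged 6.5 weeks that had eaten a high-fat diet for 4 days, and all of them received injections into the peritoneum on days 0 and 2. The groups were wild type mice (C57Bl/6J) given the vehicle pyridine (3 arrays), wild type mice given α-galactosylceramide (αGalCer) at 100 ng per g of body weight (4 arrays), CD1d-/- mice given vehicle (3 arrays) and CD1d-/- mice given the same dose of αGalCer (3 arrays). The knockout strain is B6.129S6-Cd1d1/Cd1d2tm1spb/J, a germline deletion, and the wild type line was bought and then bred in the facility. αGalCer is a glycolipid that activates natural killer T (NKT) cells when CD1d presents it, and mice without CD1d lack those cells. The labels do not say whether wild type and knockout mice were littermates, nor whether each array holds the RNA of 1 animal, so the p-values cover only the variation among these arrays, part of which may be technical.

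The cascade has several starts. In the classical route C1q binds antibody or debris and activates the proteases C1r and C1s. In the lectin route ficolins and collectins bind sugars and activate the MASP proteases, and factor B, factor D and properdin sustain the alternative route. The routes meet at C3, whose cleavage yields the anaphylatoxin C3a and leads to C5a and to the membrane attack complex of C5b to C9. Macrophages are a main local source of C1q, properdin and several receptors, the liver supplies most circulating components, and adipocytes are a textbook source of factor D. Soluble and membrane regulators limit the cascade on the body's own cells.

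Expression is given on the log2 scale, 1 deposited value per probe set and array. A change of 1 is a 2-fold change, each change is printed with its standard error (SE) after ±, and a gene is called at an adjusted p under 0.05 from 1 limma model over all 13 arrays and 18818 genes. Levels are compared only within a probe set. Cd1d1, the deleted gene, read 10.55 to 10.86 in wild type arrays after vehicle, 9.08 to 10.01 in wild type arrays after αGalCer and 2.64 to 4.03 in the 6 knockout arrays.

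Several members that rose together have a RefSeq promoter window (assembly GRCm38.p6, 250 bases before to 50 after the gene's start, gene strand, 5′ to 3′), and 6 windows are shown because they carry a motif found in most of the risers' windows; of the 4 motifs given here it is also the most common over all promoters. The motif is GAGGAA, a core recognised by PU.1, the myeloid transcription factor encoded by Spi1. Capitals mark GAGGAA or, for the other strand, TTCCTC. C1qb (chr4:136886151-136886450, minus strand) and C1qc (chr4:136892865-136893164, minus strand) are neighbouring chains of C1q, Fcna (chr2:25627925-25628224, minus strand) is ficolin A, Cfp (chrX:20931506-20931805, minus strand) is properdin and Itgam (chr7:128062390-128062689, plus strand) is the α chain of complement receptor 3. Vsig4 (chrX:96293389-96293688, minus strand), a C3b receptor of resident macrophages, was the 1 member outside the risers that held the motif among the windows used.
C1qb: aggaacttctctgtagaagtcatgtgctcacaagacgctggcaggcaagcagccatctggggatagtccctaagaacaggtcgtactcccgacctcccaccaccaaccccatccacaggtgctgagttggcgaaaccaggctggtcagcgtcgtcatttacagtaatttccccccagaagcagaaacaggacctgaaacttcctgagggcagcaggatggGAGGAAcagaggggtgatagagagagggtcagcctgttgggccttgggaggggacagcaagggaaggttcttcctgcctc
C1qc: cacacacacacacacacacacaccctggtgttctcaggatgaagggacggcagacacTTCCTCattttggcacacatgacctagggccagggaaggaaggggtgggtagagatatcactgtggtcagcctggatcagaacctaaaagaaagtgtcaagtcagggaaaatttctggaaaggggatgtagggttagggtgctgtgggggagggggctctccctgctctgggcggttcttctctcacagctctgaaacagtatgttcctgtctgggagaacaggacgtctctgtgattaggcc
Fcna: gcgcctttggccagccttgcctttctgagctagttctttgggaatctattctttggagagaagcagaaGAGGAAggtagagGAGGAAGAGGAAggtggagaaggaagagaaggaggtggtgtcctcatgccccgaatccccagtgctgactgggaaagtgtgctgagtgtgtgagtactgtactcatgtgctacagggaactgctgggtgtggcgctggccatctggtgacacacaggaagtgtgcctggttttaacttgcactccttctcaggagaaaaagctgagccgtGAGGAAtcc
Cfp: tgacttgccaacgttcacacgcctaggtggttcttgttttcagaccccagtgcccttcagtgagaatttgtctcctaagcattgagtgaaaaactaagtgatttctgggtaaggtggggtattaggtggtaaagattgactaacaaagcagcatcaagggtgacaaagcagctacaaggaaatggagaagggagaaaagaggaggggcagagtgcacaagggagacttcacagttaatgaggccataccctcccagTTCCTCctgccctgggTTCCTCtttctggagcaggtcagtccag
Itgam: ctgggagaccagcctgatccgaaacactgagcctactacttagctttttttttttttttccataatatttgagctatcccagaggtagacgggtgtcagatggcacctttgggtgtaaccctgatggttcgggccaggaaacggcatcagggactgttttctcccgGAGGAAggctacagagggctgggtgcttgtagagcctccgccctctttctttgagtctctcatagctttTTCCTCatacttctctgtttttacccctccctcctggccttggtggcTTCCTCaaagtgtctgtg
Vsig4: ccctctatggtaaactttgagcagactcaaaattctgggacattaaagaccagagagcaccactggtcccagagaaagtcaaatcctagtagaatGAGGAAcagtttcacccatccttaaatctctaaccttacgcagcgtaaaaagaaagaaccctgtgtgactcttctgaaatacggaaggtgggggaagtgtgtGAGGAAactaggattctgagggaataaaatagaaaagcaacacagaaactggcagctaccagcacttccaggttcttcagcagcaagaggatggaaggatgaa

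RefSeq windows were used for 22 of the 31 members, and these 25 windows were searched on both strands. No window on chromosome 18, where Colec12 lies, was used. GAGGAA stood in a window of 8 of the 22 members (36.4%), against 31.3% of 27025 genes and 28.3% of all 32851 windows. Of the 9 members with a window that rose in wild type fat, 7 held it (C1qb, C1qc, C1ra, Fcna, C5ar2, Itgam and Cfp), C5ar2 in 1 of its windows only. It was absent from the windows of C3ar1 and C5ar1, which also rose. Of the other 13 members whose window was used 1 held it. Among all genes measured it stood in 35.0% of 2964 that rose and 29.0% of 11785 others. Another 3 motifs are given: GAAANNGAAA (an interferon-stimulated response element) in 2 of the 22 members and 3.99% of genes, TTGCNNAA (a C/EBP element) in 4 and 12.2%, and GGGANNNNCC (an NF-κB element) in 6 and 22.9%. The members with GAAANNGAAA were Cd46 and Vtn, which both fell, and 0 of the 9 risers held it. These matches describe letters in a window and do not show binding.

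In wild type fat, αGalCer was followed by higher values of C1q, ficolin A, properdin, factor B, C2, the anaphylatoxin receptors, Itgam and Itgb2. Vitronectin, Masp1, Cd46, Cd55 and Colec12 had lower values. The calls of C2 and Cd55 were lost when certain single arrays were left out. Of the 31 members, 14 rose, 7 fell and 10 were not called. Over all genes 19.8% were called higher and 22.0% lower in this comparison, and the median change was 0.03 over the members and -0.02 over all genes. The wild type groups did not overlap for 22 members (71.0%), against 46.7% of all genes. The 7 falls are a share near the 22.0% of all genes. By role, 4 of 5 genes of the C1 complex, 3 of 3 of the convertase group and 5 of 7 receptors rose. Of the terminal components 2 of 6 fell, and of the regulators 3 of 7 fell and 1 of 7 rose. The lectin group was split, with 1 of 3 higher and 2 of 3 lower.

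**Figure D1:**
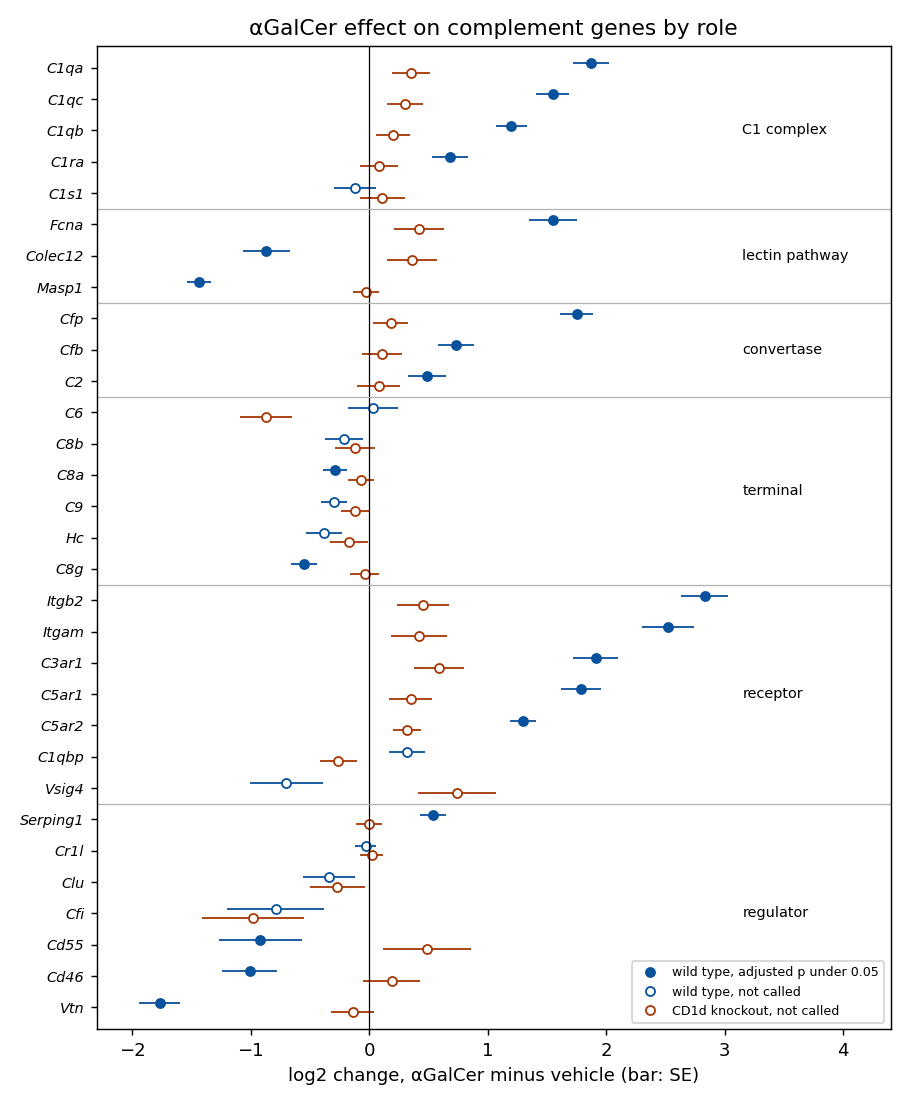
Log2 change from vehicle to αGalCer (horizontal axis) for each of the 31 members (vertical axis), grouped by role, in wild type (blue) and CD1d knockout (brown) fat; bars are SE and filled points are called. The receptors Itgb2 and Itgam lie farthest to the right at 2.83 and 2.52, Vtn farthest to the left at -1.77, and no knockout point is filled.

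The 3 chains of C1q, which bind immune complexes and dying cells, rose together. C1qa read 8.66, 9.21 and 9.33 after vehicle and 10.92, 10.99, 11.08 and 10.75 after αGalCer. C1qb read 10.94, 11.58 and 11.50 and then 12.51, 12.56, 12.67 and 12.41. C1qc read 10.09, 10.74 and 10.72 and then 12.07, 12.14, 12.18 and 11.88. In all 3 genes every treated array lay above every vehicle array, and vehicle replicate 1 was the lowest. The changes were 1.87 ± 0.15 for C1qa (3.65-fold, limma adjusted p = 5.32e-07), 1.20 ± 0.13 for C1qb and 1.55 ± 0.14 for C1qc. Their genes lie side by side on chromosome 4, with 0 protein-coding genes between neighbours.

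The proteases of the C1 complex did not move with C1q as a unit. C1ra, for C1r, which cleaves C1s, read 6.12, 6.71 and 6.20 after vehicle and 7.09, 6.77, 7.12 and 7.12 after αGalCer, a rise of 0.68 ± 0.15 (limma adjusted p = 0.00277). C1s1, the protease that cleaves C4 and C2, read 9.22, 10.12 and 9.61 and then 9.66, 9.18, 9.64 and 9.65. Those C1s1 groups overlapped, and the change was -0.12 ± 0.18 (limma adjusted p = 0.657). C1ra and C1s1 are neighbours on chromosome 6 with 0 protein-coding genes between them.

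Among lectin pathway genes, Fcna rose while the protease Masp1 and the scavenger collectin Colec12 fell. Fcna read 7.20, 7.79 and 7.94 after vehicle and 9.46, 8.67, 9.34 and 9.30 after αGalCer, a rise of 1.55 ± 0.20 (2.92-fold). Masp1, which activates Masp2 after lectins bind sugar, read 7.20, 7.01 and 6.91 and then 5.72, 5.52, 5.52 and 5.63. The Masp1 groups stood well apart, and the fall of 1.44 ± 0.10 (change -1.44) had the smallest p of the 31 members (limma adjusted p = 2.77e-07). Colec12 read 8.82, 9.35 and 9.19 and then 8.16, 8.07, 8.44 and 8.33, a change of -0.87 ± 0.20 (limma adjusted p = 0.00283).

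All 3 measured genes of the convertase group rose. Properdin, which stabilises the alternative convertase, had the clearest separation: Cfp read 9.47, 10.11 and 9.90 after vehicle and 11.62, 11.48, 11.66 and 11.55 after αGalCer. Its rise was 1.75 ± 0.14 (3.37-fold, limma adjusted p = 5.34e-07). Cfb, the protease subunit of the alternative convertase, went from 9.61, 10.30 and 9.82 to 10.79, 10.39, 10.61 and 10.78, a rise of 0.73 ± 0.15. The Cfb groups were separated by the narrow gap between 10.30 and 10.39. C2, the protease subunit of the classical convertase, read 8.52, 9.14 and 8.76 and then 9.64, 8.88, 9.29 and 9.38, and the groups overlapped. Its rise of 0.49 ± 0.16 (limma adjusted p = 0.0285) lost its call without wild type vehicle replicate 1 or 3 or wild type αGalCer replicate 1 or 4, with adjusted p from 0.0658 to 0.141, and with the replicate number as a block (0.0835).

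**Figure D2:**
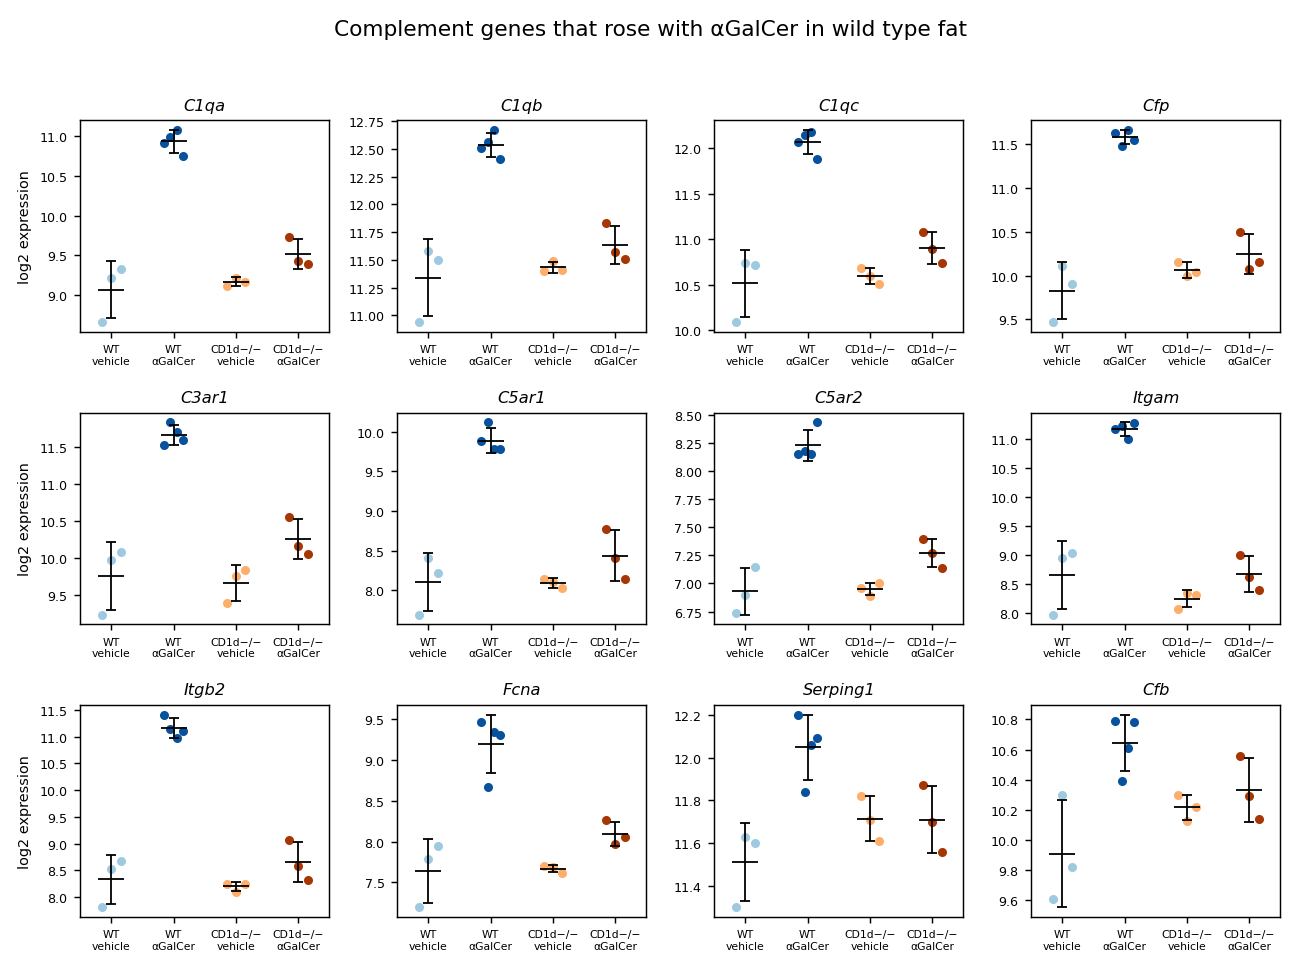
Log2 expression (vertical axes, each panel with its own range) of 12 of the 14 genes that rose in wild type fat, by group; points are arrays, lines the mean and SD. In wild type the treated arrays lie above the vehicle arrays in every panel. The knockout arrays lie below the treated wild type arrays in every panel except Cfb and Serping1. Itgb2 is at most 9.07 in knockout against at least 10.97 in treated wild type. In CD1d-/- αGalCer replicate 1 Cfb reads 10.56 and Serping1 11.87, against lowest treated wild type arrays of 10.39 and 11.84.

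The receptors held the largest changes of the set. Itgb2 encodes CD18, the β chain shared by complement receptors 3 and 4, and it read 7.81, 8.52 and 8.67 after vehicle and 11.41, 11.15, 10.97 and 11.11 after αGalCer. Its partner Itgam (CD11b) read 7.97, 8.95 and 9.03 and then 11.17, 11.22, 11.00 and 11.28. Both gaps were wider than the spread of either group. The rises were 2.83 ± 0.20 (7.10-fold, limma adjusted p = 3.26e-07) for Itgb2 and 2.52 ± 0.22 (5.73-fold) for Itgam.

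The anaphylatoxin receptors rose as well. C3ar1, the receptor for C3a, read 9.23, 9.97 and 10.08 after vehicle and 11.53, 11.84, 11.71 and 11.60 after αGalCer. C5ar1, the signalling receptor for C5a, read 7.69, 8.40 and 8.21 and then 9.88, 10.12, 9.78 and 9.78. C5ar2, another C5a receptor that does not couple to G proteins, read 6.74, 6.90 and 7.15 and then 8.15, 8.18, 8.15 and 8.43. For each of these receptors the lowest treated array stood above the highest vehicle array. Changes were 1.91 ± 0.19 for C3ar1, 1.79 ± 0.17 for C5ar1 and 1.30 ± 0.11 for C5ar2 (limma adjusted p = 4.23e-06, 2.55e-06 and 1.20e-06). C5ar2 and C5ar1 are neighbours on chromosome 7, with 0 protein-coding genes between them.

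The other receptors behaved differently. Vsig4 read 7.17, 7.72 and 8.14 after vehicle and 6.57, 7.87, 7.02 and 6.44 after αGalCer, so the groups overlapped through replicate 2. Its change of -0.70 ± 0.31 was not called (limma adjusted p = 0.0948), and became -0.99 with an adjusted p of 0.0062 without wild type αGalCer replicate 2. C1qbp, a mitochondrial matrix protein also described as binding the globular heads of C1q, read 9.56, 9.39 and 9.39 and then 10.01, 9.64, 9.51 and 9.91. The C1qbp groups overlapped, and the change of 0.32 ± 0.15 was not called (limma adjusted p = 0.101).

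The regulators went both ways. Serping1, the C1 inhibitor, read 11.30, 11.63 and 11.60 after vehicle and 12.20, 11.84, 12.06 and 12.09 after αGalCer, a rise of 0.54 ± 0.11 (limma adjusted p = 0.00119). Vitronectin, which blocks insertion of the attack complex and is also an adhesion protein, had groups far apart: Vtn read 8.24, 8.24 and 8.22 and then 6.67, 5.94, 6.73 and 6.51. The Vtn change was -1.77 ± 0.17 (3.42-fold lower, limma adjusted p = 2.36e-06). Cd46, a membrane cofactor for cleavage of C3b, read 5.65, 6.37 and 6.20 and then 4.57, 4.91, 5.45 and 5.32, a change of -1.01 ± 0.23 with no overlap between groups.

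Cd55, which speeds decay of the convertases on cell surfaces, was the least firm call. It read 7.20, 8.51 and 8.18 after vehicle and 6.71, 6.59, 7.74 and 7.14 after αGalCer, so vehicle replicate 1 lay below treated replicate 3. The change was -0.92 ± 0.35 with a limma adjusted p of 0.0499. That call was lost without any 1 of wild type vehicle replicate 2 or 3, wild type αGalCer replicate 1, 2 or 4, CD1d-/- vehicle replicate 3 or any CD1d-/- αGalCer array (adjusted p 0.0607 to 0.208). Clu and Cr1l, a carrier that keeps the attack complex soluble and a rodent membrane regulator, changed by -0.34 ± 0.22 and -0.03 ± 0.09 and were not called.

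Cfi, the protease that inactivates C3b, read 4.71, 4.17 and 5.12 after vehicle and 3.91, 3.67, 3.95 and 3.99 after αGalCer. Those groups do not overlap, yet the change of -0.79 ± 0.41 was not called (limma adjusted p = 0.146), and CD1d-/- vehicle replicate 1 stood at 6.22. Without that array the adjusted p was 0.00666. The 9 markers of ciliated and ductal epithelium had their highest array mean, 7.90, in the same array. In wild type arrays their mean was 5.47 to 7.11 after vehicle and 4.39 to 4.49 after αGalCer. Their part in the Cfi values was not tested.

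Of the 6 terminal components, 2 fell slightly and 4 were not called. C8g, the lipocalin chain of C8, read 5.53, 5.57 and 5.58 after vehicle and 4.97, 5.02, 5.13 and 4.93 after αGalCer, a change of -0.55 ± 0.11 (limma adjusted p = 0.00138). C8a fell by 0.29 on the log2 scale (change -0.29 ± 0.10, limma adjusted p = 0.0364). Its call was lost without wild type vehicle replicate 1 or 2 or wild type αGalCer replicate 3 or 4 (adjusted p 0.0527 to 0.174), and with the replicate number as a block (0.140). C9, C8b and Hc, the gene for C5, changed by -0.30, -0.21 and -0.38 and were not called, with adjusted p of 0.0524, 0.349 and 0.0568. Without wild type vehicle replicate 1 the changes of C8b and Hc were -0.10 and -0.20. Hc was called without wild type vehicle replicate 2 (-0.53, adjusted p 0.0112) or CD1d-/- vehicle replicate 2 (0.0427), and C9 without wild type vehicle replicate 3 or any CD1d-/- vehicle array (0.016 to 0.0471). With C8a and Cfi these were the 5 members with a mean under 5, a range in which array values change less than the RNA does. C6 read 7.52, 7.41 and 7.83 and then 7.23, 7.90, 7.94 and 7.37, with overlap and a change of 0.03 ± 0.21.

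**Figure D3:**
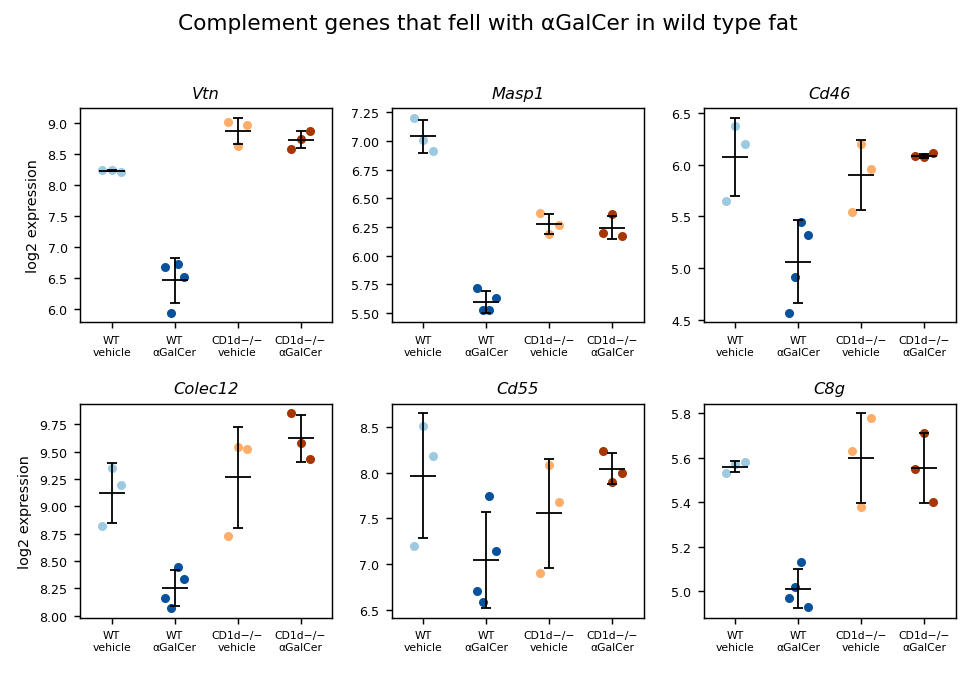
Log2 expression (vertical axes, each panel with its own range) by group for the 6 genes with the largest called falls in wild type fat; points are arrays, lines the mean and SD. Treated wild type arrays lie below vehicle arrays for Vtn, Masp1, Cd46, Colec12 and C8g, and overlap them for Cd55; the Masp1 knockout arrays, 6.17 to 6.37, lie between both wild type groups.

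Each of the 14 risers had its lowest value of all 13 arrays in wild type vehicle replicate 1. Without that array C2 and C8a lost their call in wild type and Vsig4 gained one. The 10 largest rises and the falls of Vtn, Masp1, Cd46, Colec12 and C8g kept their call whichever 1 array was left out, as did C1ra, Cfb and Serping1.

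In CD1d-/- fat none of the members was called for αGalCer, and 0.0% of all genes were called in limma at the adjusted p. Of the 31 members 6 had an unadjusted p under 0.05, against 1281 of all 18818 genes. The smallest limma adjusted p of a member was 0.720. With array weights limma called 175 genes higher and 147 lower, but again 0 members. Among the members that rose in wild type, 13 of 14 knockout changes were above 0, with a median of 0.31 and a range of -0.00 to 0.59. The share above 0 among all genes that rose in wild type was not computed. Among the risers over 1 in wild type, the knockout change was 10.3% to 31.1% of the wild type change. Leaving out CD1d-/- αGalCer replicate 1, the highest of the 6 knockout arrays for all 14 of these genes, lowered the median to 0.20.

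The array values show this narrow range. Itgb2 read 8.25, 8.10 and 8.25 in CD1d-/- fat after vehicle and 9.07, 8.57 and 8.32 after αGalCer, and Itgam read 8.07, 8.35 and 8.31 and then 9.0, 8.61 and 8.39. C3ar1, with the largest knockout change of the risers (0.59 ± 0.21, limma adjusted p = 0.720), read 9.38, 9.75 and 9.84 and then 10.56, 10.16 and 10.05. In these genes the treated knockout arrays lay just above the vehicle arrays. The share of all genes with knockout groups that do not overlap was not computed, here or for the members below. C1qa went from 9.11, 9.22 and 9.17 to 9.73, 9.43 and 9.39, C1qb from 11.40, 11.49 and 11.41 to 11.83, 11.57 and 11.51, and C1qc from 10.68, 10.60 and 10.51 to 11.08, 10.89 and 10.74. C5ar1 read 8.14, 8.10 and 8.02 and then 8.77, 8.40 and 8.14, and C5ar2 read 6.96, 6.89 and 7.0 and then 7.39, 7.27 and 7.14. Every treated knockout value of C1q and of these receptors stayed below the lowest treated wild type value of the same gene.

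Properdin and ficolin A changed by 0.18 ± 0.15 and 0.42 ± 0.21 in knockout fat, and neither they nor the C1 inhibitor were called. Cfp read 10.16, 9.99 and 10.04 in knockout fat after vehicle and 10.50, 10.07 and 10.16 after αGalCer, with overlapping groups. Fcna read 7.70, 7.69 and 7.62 and then 8.26, 7.97 and 8.05. Serping1 read 11.82, 11.71 and 11.61 and then 11.87, 11.70 and 11.56, with overlapping groups and a change of -0.00. Its value of 11.87 lay above the lowest treated wild type array, 11.84.

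The genes that fell in wild type fat gave no call in knockout fat. Vtn read 9.02, 8.64 and 8.97 in CD1d-/- fat after vehicle and 8.59, 8.74 and 8.87 after αGalCer, and Masp1 read 6.37, 6.19 and 6.27 and then 6.20, 6.36 and 6.17. Cd46 read 5.54, 6.20 and 5.96 and then 6.08, 6.07 and 6.11, and Colec12 read 8.73, 9.54 and 9.52 and then 9.85, 9.58 and 9.43. C8g read 5.63, 5.38 and 5.78 and then 5.55, 5.71 and 5.40. The groups overlapped in all 5 genes. Cd55 read 6.91, 8.08 and 7.68 and then 8.23, 7.90 and 8.00, also with overlap.

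The difference between the αGalCer effects was tested as an interaction, wild type change minus knockout change. Of the 31 members 12 had a difference above 0 and 6 below 0, against 13.9% and 14.3% of all genes. The largest were Itgb2 (2.38 ± 0.30, limma adjusted p = 8.61e-05) and Itgam (2.09 ± 0.32), followed by Cfp (1.57 ± 0.20), C1qa (1.51 ± 0.21) and C5ar1 (1.44 ± 0.25). On the other side were Vtn (-1.63 ± 0.24), Vsig4 (-1.44 ± 0.46), Masp1 (-1.41 ± 0.15), Colec12 (-1.23 ± 0.29) and Cd46 (-1.20 ± 0.33). C1ra, Cfb and C2, which rose in wild type, were not called for the difference, at 0.60, 0.61 and 0.41 with adjusted p of 0.0664, 0.0617 and 0.251. Cd55 was not called either (-1.41 ± 0.51, limma adjusted p = 0.0576).

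Vsig4 and C6 differed between genotypes without a called change in either one. Vsig4 read 6.84, 7.03 and 6.81 in CD1d-/- fat after vehicle and 8.01, 7.42 and 7.46 after αGalCer, so the treated arrays lay above the vehicle arrays, whereas the wild type groups overlapped. Its difference of -1.44 had an adjusted p of 0.0318 and lost its call without wild type vehicle replicate 2 or 3, wild type αGalCer replicate 1 or 4, CD1d-/- vehicle replicate 1 or 3 or CD1d-/- αGalCer replicate 1 (0.0522 to 0.0852). C6 read 8.49, 7.98 and 8.06 and then 7.58, 7.38 and 6.96 in knockout fat, with no overlap. Its difference of 0.90 ± 0.31 (limma adjusted p = 0.0441) was lost without wild type vehicle replicate 1 or 2, wild type αGalCer replicate 2 or 3, CD1d-/- vehicle replicate 1 or 3 or CD1d-/- αGalCer replicate 2 or 3 (0.0555 to 0.119). The replicate block gave 0.059 for Vsig4 and 0.0566 for C6. C8g, at -0.50 (limma adjusted p = 0.0345), was lost without wild type vehicle replicate 2 or 3, wild type αGalCer replicate 1, 2 or 4, CD1d-/- vehicle replicate 2 or CD1d-/- αGalCer replicate 1 or 2 (0.0538 to 0.0967), and at 0.0914 under the block. Serping1 (0.54, adjusted p = 0.0205) was lost without CD1d-/- αGalCer replicate 3, at 0.0591.

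**Figure D4:**
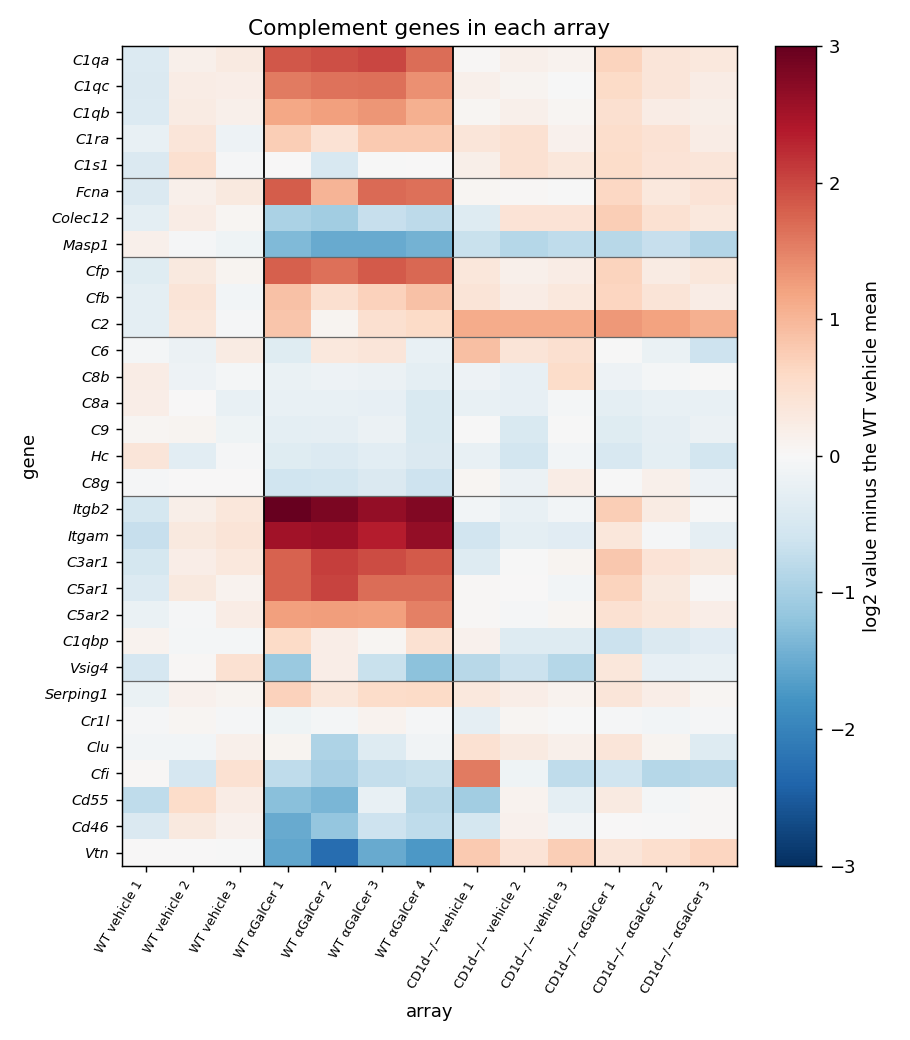
Each cell is a member's log2 value in 1 array (columns, by group) minus that gene's mean over the 3 wild type vehicle arrays (colour scale in log2 units), with genes in rows grouped by role. The 4 wild type αGalCer columns hold the strong colours, Itgb2 and Itgam in red and Vtn in blue, C2 is red in all 6 knockout columns, and Cfi stands out in CD1d-/- vehicle replicate 1.

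The genotypes were also compared at each injection. After vehicle, C2 was higher and Masp1 lower in CD1d-/- fat, and the other 29 members were not called; 0.0903% of all genes were called higher and 0.0213% lower. C2 read 9.93, 9.91 and 9.93 in CD1d-/- arrays after vehicle and 10.10, 10.02 and 9.88 after αGalCer. All 6 knockout values lay above all 7 wild type values, the highest of which was 9.64, and the difference after vehicle was 1.12 ± 0.18 (limma adjusted p = 0.0293). Masp1 differed by -0.76 ± 0.11 after vehicle (limma adjusted p = 0.0158), with knockout arrays between the vehicle and treated wild type arrays. Genotype arrays did not overlap over all 13 arrays for 2 members, C2 and Vtn, against 3.16% of all genes.

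Both calls after vehicle rested on few arrays. The C2 call was kept without wild type vehicle replicate 2, wild type αGalCer replicate 1 or wild type αGalCer replicate 2, and lost without any 1 of the other 10 arrays (adjusted p 0.052 to 0.13), while the difference stayed between 0.97 and 1.28. The Masp1 call was lost without wild type vehicle replicate 1 or 2 or CD1d-/- vehicle replicate 2 or 3 (0.0651 to 0.0802). With the replicate number as a block the adjusted p was 0.112 for C2 and 0.0494 for Masp1. The 10 measured genes flanking C2, Cfb among them, differed between genotypes after vehicle by -0.09 to 0.33, and those flanking Masp1 by -0.48 to 0.54. None of these 20 genes was called (limma, smallest adjusted p = 0.645), and an unadjusted p under 0.05 was found for 2 beside C2 (Dxo and Skiv2l) and 1 beside Masp1 (Rtp4). Since littermates are not stated, genotype and line of breeding cannot be told apart.

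After αGalCer, 8 members were higher and 12 lower in CD1d-/- fat, against 21.9% and 19.2% of all genes. This comparison shares the 4 treated wild type arrays with the wild type comparison and adds no separate evidence on its genes. Vtn was higher by 2.27 ± 0.17, Colec12 by 1.37 ± 0.20 and Cd46 by 1.03 ± 0.23, and Itgb2 and Itgam were lower, at -2.51 ± 0.20 and -2.50 ± 0.22. Members with no call in wild type also appeared here. C1s1 read 9.82, 10.10 and 10.00 in CD1d-/- arrays after vehicle and 10.20, 10.05 and 10.01 after αGalCer, and was higher than in treated wild type fat by 0.55 ± 0.18 (limma adjusted p = 0.0249). C1qbp read 9.58, 9.07 and 9.06 and then 8.80, 9.01 and 9.11, and was lower, at -0.80 ± 0.15 (limma adjusted p = 0.000657). C2 was still higher in the knockout, by 0.70 ± 0.16, and Masp1, lower after vehicle, was now higher by 0.64 ± 0.10.

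**Figure D5:**
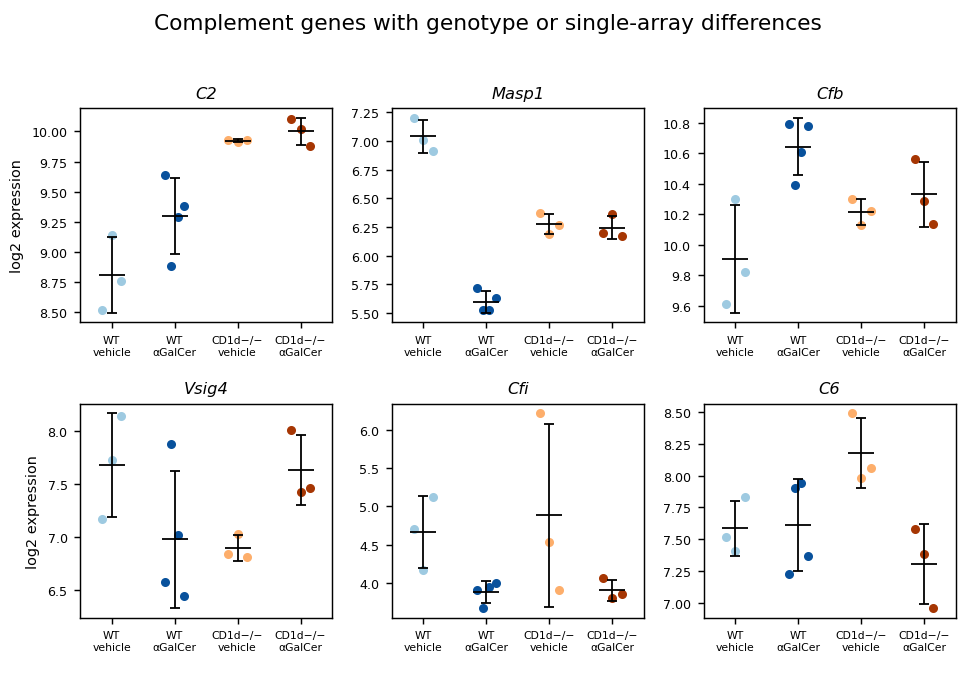
Log2 expression (vertical axes, each panel with its own range) by group for C2, Masp1, Cfb, Vsig4, Cfi and C6; points are arrays, lines the mean and SD. The 6 knockout arrays of C2 (9.88 to 10.10) lie above all wild type arrays, while Cfb, its neighbour, overlaps between genotypes.

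Markers of cell types were read beside these groups, since whole fat mixes cells. In bulk tissue fewer cells of a type and less RNA per cell cannot be told apart. Of 12 macrophage markers 9 rose in wild type fat and 0 fell, with a median change of 1.21. Their array mean was 8.23 to 8.85 in wild type after vehicle, 9.70 to 9.86 after αGalCer, 8.59 to 8.73 in knockout after vehicle and 8.78 to 9.12 after αGalCer. Wild type vehicle replicate 1 was the lowest array here too, and CD1d-/- αGalCer replicate 1 the highest of the knockout. Cd68 and Mrc1 rose by 1.82 each and Adgre1 by 1.39, beside 1.87 for C1qa, while Mertk and Timd4 changed by 0.13 and -0.04 and were not called. Markers of neutrophils (7 of 8 higher), T cells (7 of 7) and natural killer cells (6 of 6) rose in the same arrays. How far these cells account for the complement genes was not tested.

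Markers of fat and stroma moved with the genes that fell. All 10 adipocyte markers fell (median -1.0), as did 7 of 7 endothelial and 6 of 8 fibroblast markers. The 5 hepatocyte markers measured, some of which fat also expresses, fell in wild type fat as well (median -1.50). Their array mean in wild type fat was 8.47 to 8.55 after vehicle and 6.30 to 7.01 after αGalCer. In knockout fat it was 7.72 to 9.06 after vehicle and 7.72 to 7.90 after αGalCer. Their median change in knockout fat was -0.72 with 0 called in limma, beside -0.14 for Vtn and -0.03 for Masp1. In wild type fat these markers fell beside Vtn and Masp1, and their part in those falls was not tested. Markers of skeletal muscle were high in CD1d-/- vehicle replicates 1 and 2 (array means 9.26 and 7.17) and CD1d-/- αGalCer replicate 3 (9.28). Elsewhere their mean was 4.89 to 5.89. The mean of the 8 epididymis and testis markers was 5.47 in wild type vehicle replicate 3 against 4.05 to 4.49 elsewhere. It was carried mainly by Adam7 (9.34) and Spint3 (6.48). Prm1 read 6.68 in that array but also 6.28 in wild type αGalCer replicate 1.

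Without those 4 arrays, which leaves 1 knockout vehicle array whose spread is assumed to be that of the other groups, 21 members were called in wild type, 19 of them called with all arrays too. C2 and Cd55 were lost (adjusted p 0.132 and 0.147), and C9 and Cfi were gained, both lower. For the difference between genotypes 12 members were called in place of 18, and Fcna, Serping1, Cd46, C6, C8g and Vsig4 were lost. For genotype after vehicle 0 were called. The differences themselves were 1.10 for C2 and -0.84 for Masp1. Itgb2 rose by 3.00 and C1qa by 2.00 in wild type fat without these arrays. Wild type vehicle replicate 1, which was kept, had a mean of 6.98 over the 9 ciliated and ductal markers. Wild type vehicle replicate 3, which was left out, stood at 7.11, and treated wild type arrays at 4.39 to 4.49. The part of these markers in the gained Cfi call was not tested.

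Further genes of the wider complement system were taken from a list of 33, of which 28 were measured. In wild type fat 5 rose and 8 fell, shares near the 19.8% and 22.0% of all genes, with a median change of -0.10. Ptx3, a pentraxin that binds C1q, rose by 3.94 ± 0.38, and Itgax (CD11c), the α chain of complement receptor 4, by 3.14 ± 0.23. Calr, a chaperone that also serves as a surface receptor for C1q, rose by 0.62 ± 0.07. Susd4, a membrane inhibitor, fell most (-2.38 ± 0.63), but it changed by -2.07 in knockout fat too, and the 9 ciliated and ductal markers had a median change of -1.82 in wild type (6 called lower) and -1.67 in knockout (0 called in limma). Their part in the Susd4 values was not tested. Cd59b, which blocks the attack complex, and C4bp, a soluble cofactor, changed by -1.04 ± 0.26 and -0.94 ± 0.34. C4bp read 4.27, 3.92 and 5.88 after vehicle, and without wild type vehicle replicate 3, the array at 5.88, its change was -0.34, an alternative chosen after seeing the data.

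Cytokines and transcription factors known to control complement genes were read from a list of 14, of which 11 were measured. In wild type fat 8 rose and 3 fell, and 0 were called in knockout fat in limma. Ifng rose by 3.17 ± 0.19, Tnf by 2.78 ± 0.33, Il1b by 2.70 ± 0.71 and Irf1 by 2.16 ± 0.14. Spi1, which encodes PU.1, rose by 2.41 ± 0.18 in wild type fat and changed by 0.39 in knockout fat, a difference called at an adjusted p of 0.000122. Pparg and Nr1h3, nuclear receptors of fat cells and macrophages, fell by 1.03 and 0.59 (changes -1.03 and -0.59).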

How the data were processed

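The log2 expression values were used as the authors deposited them, 1 value per probe set and array, made with RMA per the submitters' processing notes. RMA corrects background, quantile normalises and summarises probes, and it compresses changes of dim probe sets. For its version, chip file and genome build: not given in the sources used here. Per the labels' protocols, 100 ng of RNA was labelled per array, from samples with an RNA integrity number above 8.0.

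Of 35556 probe sets, 21218 name 1 gene in the platform annotation, 1881 several and 12457 none. Symbols were updated by Entrez identifier (21185), by accession (3) or kept (30), with the RefSeq table of GRCm38.p6, used for names and gene order. For 1388 genes with several probe sets the one with the highest mean stood for the gene, which gave 18818 genes with no filter.

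All 13 arrays entered 1 limma model (version 3.58.1, R 4.3.3) that fits each group's mean and moderates variances by eBayes with an intensity trend. It had 5 contrasts, with two-sided tests and Benjamini-Hochberg adjustment over all genes, and it was tested on simulated data. The members and lists were chosen with earlier results of these data known. Array values were given for the 8 largest called rises and 6 largest called falls in wild type, for members called in other contrasts (for the difference of effects the 8 largest) and for a few set genes; others are given more briefly or were added after their values were seen. Scan dates were not at hand, so no scan batch was tested. Precision is limited by how few arrays each group has. Alternatives covered variance moderation, array weights, normalisation, dim genes, the choice of probe set, a replicate block, a required fold and arrays left out.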

Additional observations from a re-analysis of the deposited data

Results flagged for a closer look

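Among the 4 treated wild type arrays, 1 array stood apart from the others for 4 of 31 members by Dixon's test: C1ra at 6.77 and C1s1 at 9.18, both low in replicate 2, C8a at 3.49 and C5ar2 at 8.43, low and high in replicate 4. Chance gives such a gap in a small share of groups, and the share over all genes was not computed. C8a is among the 5 members with a mean under 5.

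The αGalCer effect differed between genotypes (wild type change minus knockout change, limma interaction, adjusted p under 0.05) for 18 members. The difference was above 0 for Itgb2 (2.38), Itgam (2.09), Cfp (1.57), C1qa (1.51), C5ar1 (1.44), C3ar1 (1.32), C1qc (1.25), Fcna (1.13), C1qb (0.99), C5ar2 (0.98), C6 (0.90) and Serping1 (0.54). It was below 0 for Vtn (-1.63), Vsig4 (-1.44), Masp1 (-1.41), Colec12 (-1.23), Cd46 (-1.20) and C8g (-0.50). For C6 the wild type change was 0.03 and the knockout change -0.87.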

How the results depend on the processing

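For αGalCer in wild type fat 21 members were called, and 18 to 24 whichever array was left out. Requiring a change beyond 1.5-fold left 12 (10 higher, 2 lower). For the difference of effects 18 were called, 16 to 19 without 1 array, 8 beyond 1.5-fold and 12 without the 4 arrays with muscle or epididymal transcripts. For knockout minus wild type after αGalCer 20 were called, 17 to 20 without 1 array and 10 beyond 1.5-fold. After vehicle the 2 calls became 0 to 2 without 1 array, 1 with all probe sets tested, 1 with the replicate block, 0 with only the groups compared, 0 beyond 1.5-fold and 0 without the 4 arrays. In knockout fat 0 members were called under every alternative run. Why the counts changed was not tested, also where an alternative has fewer arrays or a stricter hypothesis.

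Same-numbered samples of different groups gave mixed correlations: 5 of 18 pairs lay above 0.1 (range -0.203 to 0.484). Values were first centred on each gene's group mean. Wild type αGalCer replicate 4 has no same-numbered partner. Of the 13 arrays, 6 correlated best, among arrays of other groups, with an array of their own number. How many such matches would arise by chance was not computed. The 18 values were not set against those of differently numbered pairs. They therefore do not decide whether same-numbered samples share a batch. With the replicate number as a block 19, 16 and 19 members were called in wild type, for the difference and after αGalCer, and 0 in knockout fat.

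Of 770 values of members in wild type under alternatives, 700 kept direction and side of the threshold, 38 lost the call, 22 gained it and 10 changed sign; for the difference of effects these were 686, 47, 21 and 16. Sign changes were limited to uncalled members. The wild type change of C6 became -0.02 with array weights, -0.07 with quantile normalisation and -0.03 with median centring, and ran from -0.09 to 0.15 without single arrays. That of C1s1 ran from -0.33 to 0.12 and that of Cr1l from -0.07 to 0.01 without single arrays. The difference of effects became 0.41 without the 4 arrays and ran from -0.34 to 0.06 without single arrays for C8b. For Cfi it became -0.17 with array weights and -0.59 without the 4 arrays, with a range of -0.48 to 0.68 without single arrays. For Cr1l it became 0.09 with array weights and 0.00 without the 4 arrays, with -0.12 to 0.05 without single arrays. Without single arrays it ran from -0.27 to 0.13 for Clu and from -0.45 to 0.00 for C1s1. Signal was low for the 5 members with a mean under 5, which limits what their values can show.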
